A study of Mus musculus with 12 samples.

Results

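The mitochondrial ribosomal protein genes are the nuclear genes whose products are carried into mitochondria and built, around RNAs made there, into the ribosome of that organelle. They were taken as the protein-coding genes of the count table whose mouse symbol begins with Mrpl or Mrps followed by a digit. Symbols were looked up from the Ensembl identifiers, and the 5 pseudogenes with such a symbol were left out. The rule found 78 genes among the 56941 of the table, 49 with an Mrpl symbol (large subunit) and 29 with an Mrps symbol (small subunit). No expression value entered the rule, and all 78 genes passed the low-count filter that left 16794 genes for testing.

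The mitochondrial ribosome makes the few respiratory chain proteins that are encoded in mitochondrial DNA, so oxidative phosphorylation depends on it. Its large subunit joins amino acids and carries the exit tunnel, and its small subunit reads the messenger RNA. Many of its proteins have a counterpart in the bacterial ribosome, and many others exist only in mitochondria. Symbols and structure differ at some points: the Mrps18a and Mrps30 proteins sit in the large subunit, and Mrps36 is known as a part of the 2-oxoglutarate dehydrogenase complex and not of the ribosome. By class, 46 of the 78 genes had a bacterial counterpart, 31 were mitochondria-specific and Mrps36 was neither.

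RNA was sequenced from CH12F3-2A, a mouse B cell lymphoma line that switches from IgM to IgA in culture, to ask what NOP16, a nucleolar protein of ribosome biogenesis, does in class switch recombination. Cells were transfected with pX459, a plasmid that carries Cas9 and a guide RNA together with puromycin resistance, and selected in puromycin for 72 h. The guide was either sgNop16, directed at Nop16, or the non-targeting sgCtr, and the labels do not describe clones. Cells of each guide then received either nothing (sgCtr_no and sgNop16_no) or CIT for 24 h (sgCtr_CIT and sgNop16_CIT). CIT is a mix of anti-CD40L at 1 µg/ml, mouse IL-4 at 20 ng/ml and human TGF-β at 1 ng/ml, both recombinant. Each of the 4 groups had 3 libraries, described as biological replicates, and all 4 passed through transfection and puromycin.

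Total counts lay between 38866418 and 48615177 per library. The targeted gene, Nop16, was at 106.3 ± 2.35 CPM (counts scaled to library size; mean ± SD, n = 3) in sgCtr_no and 85.7 ± 3.10 in sgNop16_no, and at 77.1 ± 3.46 and 65.7 ± 0.930 CPM in the matching CIT groups. The Nop16 guide thus went with less of its RNA in either state, by 0.31 on the log2 scale without CIT (adjusted p = 0.000109, edgeR's quasi-likelihood test) and by 0.23 with CIT (adjusted p = 0.00204), but it remained at most of its control level. A Cas9 edit need not lower RNA, so these values do not measure the loss of the protein. All 6 B cell markers were above 1 CPM, but their sum was lower with the Nop16 guide, at 3579.0 to 3619.6 CPM against 3901.4 to 3963.7 CPM without CIT and at 3665.6 to 3734.8 CPM against 3951.5 to 4038.9 CPM with it. In either state 3 of the 6 were called lower with that guide. Macrophage markers were low, and their sum was higher with CIT and, in either state, with the Nop16 guide. It lay between 7.14 and 8.26 CPM in sgCtr_no, 12 and 15.3 CPM in sgCtr_CIT, 9.24 and 10.7 CPM in sgNop16_no, and 15.6 and 18.3 CPM in sgNop16_CIT. With CIT, 2 of the 3 tested were called higher under the control guide and 1 under the Nop16 guide, and Lyz2 was at 0 throughout. Between guides, 1 was called higher with the Nop16 guide without CIT and 0 with it. The summed T cell markers lay between 0.98 and 1.43 CPM without CIT and between 0.103 and 0.411 CPM with it, and the 1 tested was called lower with either guide. Fibroblast markers reached 0.926 CPM at most. The part of these marker shifts in the results was not tested.

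All 78 genes were well measured. Mean levels over the 12 libraries, which set the precision and are not scaled to length, ran from 13.7 to 153.0 CPM. Their median was 47.4 CPM, against 15.2 CPM for all tested genes, and no gene had under 521 counts in a library. The coefficient of variation between libraries of a group had a median of 4.88% for these genes and 8.82% for all tested genes. Per kilobase of exon, Mrpl12, a protein of the flexible stalk that recruits translation factors, was the highest at 99.8 CPM per kb. Mrpl18 followed at 74.4 and Mrpl34 at 69.7 CPM per kb. The lowest were Mrps31 at 4.17, Mrps35 at 4.54 and Mrpl33 at 4.70 CPM per kb. Exon lengths here are of all annotated transcripts joined, which understates the level of a gene with rarely used long exons. Exons of 33 of the genes overlap another gene, 8 on the same strand and 28 on the opposite one, and reads could be shared there, as the strand setting of the counting was not stated in the labels or headers. The pseudogenes of Mrpl48, Mrpl23 and Mrps36 held at most 2.16 CPM in any library.

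The promoters of 5 members whose responses to CIT are described below are printed. First come the 3 relatives of bacterial protein S18 (Mrps18a, Mrps18b and Mrps18c), whose responses to CIT were unlike in size. The others are Mrpl57, which had the deepest fall among the genes with an Mrpl symbol, and Mrpl12. The windows are RefSeq's, on build GRCm38.p6, and run from 250 bases before to 50 bases after the transcription start, 5′ to 3′ on the gene's strand. They lie at chr17:46110754-46111053 on the + strand for Mrps18a, at chr17:35916391-35916690 on the - strand for Mrps18b and at chr5:100798509-100798808 on the + strand for Mrps18c. Those of Mrpl57 and Mrpl12 lie at chr14:57825989-57826288 and chr11:120484387-120484686, both on the + strand. Capitals mark matches, on either strand, to 4 motifs of factors known to act at such promoters: GCGCA and GCGC with any base between them for NRF1, CCGGAAG for ETS factors such as GABP, AAGATGGCG for YY1 and CACGTG, the E-box read by MYC and USF proteins.
Mrps18a: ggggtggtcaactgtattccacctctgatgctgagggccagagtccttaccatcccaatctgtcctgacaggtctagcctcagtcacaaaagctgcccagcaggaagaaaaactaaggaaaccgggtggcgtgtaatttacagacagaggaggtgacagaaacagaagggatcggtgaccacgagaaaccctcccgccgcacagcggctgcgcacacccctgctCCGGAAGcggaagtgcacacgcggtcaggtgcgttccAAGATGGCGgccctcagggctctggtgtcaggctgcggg
Mrps18b: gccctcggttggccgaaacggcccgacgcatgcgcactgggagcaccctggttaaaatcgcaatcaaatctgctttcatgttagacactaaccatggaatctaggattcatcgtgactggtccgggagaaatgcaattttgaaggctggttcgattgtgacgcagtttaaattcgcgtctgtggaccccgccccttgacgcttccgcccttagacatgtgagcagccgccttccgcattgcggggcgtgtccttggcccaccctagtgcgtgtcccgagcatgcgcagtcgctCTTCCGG
Mrps18c: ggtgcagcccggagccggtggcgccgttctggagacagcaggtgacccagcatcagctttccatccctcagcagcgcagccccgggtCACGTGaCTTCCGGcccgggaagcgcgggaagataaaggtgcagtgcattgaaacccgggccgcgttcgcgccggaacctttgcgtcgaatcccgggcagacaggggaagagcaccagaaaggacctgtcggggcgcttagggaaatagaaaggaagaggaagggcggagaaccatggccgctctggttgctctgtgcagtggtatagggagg
Mrpl57: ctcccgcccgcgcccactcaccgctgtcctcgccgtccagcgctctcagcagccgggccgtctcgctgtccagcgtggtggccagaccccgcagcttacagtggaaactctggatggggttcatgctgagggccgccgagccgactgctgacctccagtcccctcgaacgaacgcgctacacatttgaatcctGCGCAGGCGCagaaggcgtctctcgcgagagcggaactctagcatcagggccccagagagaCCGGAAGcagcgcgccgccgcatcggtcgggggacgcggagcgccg
Mrpl12: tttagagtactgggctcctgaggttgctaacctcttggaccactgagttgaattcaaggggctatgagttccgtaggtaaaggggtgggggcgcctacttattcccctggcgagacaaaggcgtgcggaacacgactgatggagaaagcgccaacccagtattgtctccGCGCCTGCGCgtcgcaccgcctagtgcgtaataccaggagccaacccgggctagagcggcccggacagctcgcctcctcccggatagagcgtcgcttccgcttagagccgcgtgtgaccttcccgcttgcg

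All 3 Mrps18 windows hold the ETS letters, beginning at position -26 from the start in Mrps18a, at 44 in Mrps18b and at -156 in Mrps18c. Mrps18a also has the YY1 letters at position 12, and Mrps18c the E-box at -163, directly before its ETS match. The NRF1 letters begin at -57 in Mrpl57, which has an ETS match at 5 as well, and at -81 in Mrpl12. None of these matches overlaps another. Each printed window thus holds a match, but the window of Mrps10, a member described further on and not printed, holds 0. RefSeq windows were at hand for 69 of the 78 genes, 75 windows in all. ETS letters were in 26 of them (34.7%), against 17.5% of the 13085 windows of tested genes and 8.86% of all 32851 windows. The NRF1 letters were in 13 windows (17.3%, against 9.64% and 4.6%) and the YY1 letters in 8 (10.7%, against 2.94% and 1.4%). The E-box was in 7 windows (9.33%), beside 9.66% of the tested genes' windows and 7.15% of all. Median GC content was 58.7% for the members, 60.0% for tested genes and 52.7% for all windows. A match is a string of letters and not a bound site.

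CIT was set against no CIT within each guide to see what stimulation did to these genes. With the control guide, most of them fell and none rose. At an adjusted p under 0.05 over all tested genes, 64 of the 78 were called lower (background: 21.1% of tested genes called lower) and 0 higher (20.6%). DESeq2 also called 0 higher, and 0 rose at an unadjusted p under 0.05, where 3964 of the 16794 tested genes did. By subunit, 42 of 49 large and 22 of 29 small subunit genes fell. The median log2 change was -0.35 for the large and -0.26 for the small subunit, with 0.02 for all tested genes. Changes were modest: 47 of the 64 fell at least 1.2-fold and 5 at least 1.5-fold. In 64 genes all 3 CIT libraries lay under all 3 unstimulated ones (background 25.0%). The background is all tested genes, which had a lower median level and a larger spread, so it is not matched for precision. Of the 10571 genes kept by a filter of 5 CPM in 3 libraries, 3228 were called lower and 3126 higher. In bulk RNA, a change in the level per cell cannot be told apart from a change in the mix of cells.

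**Figure D1:**
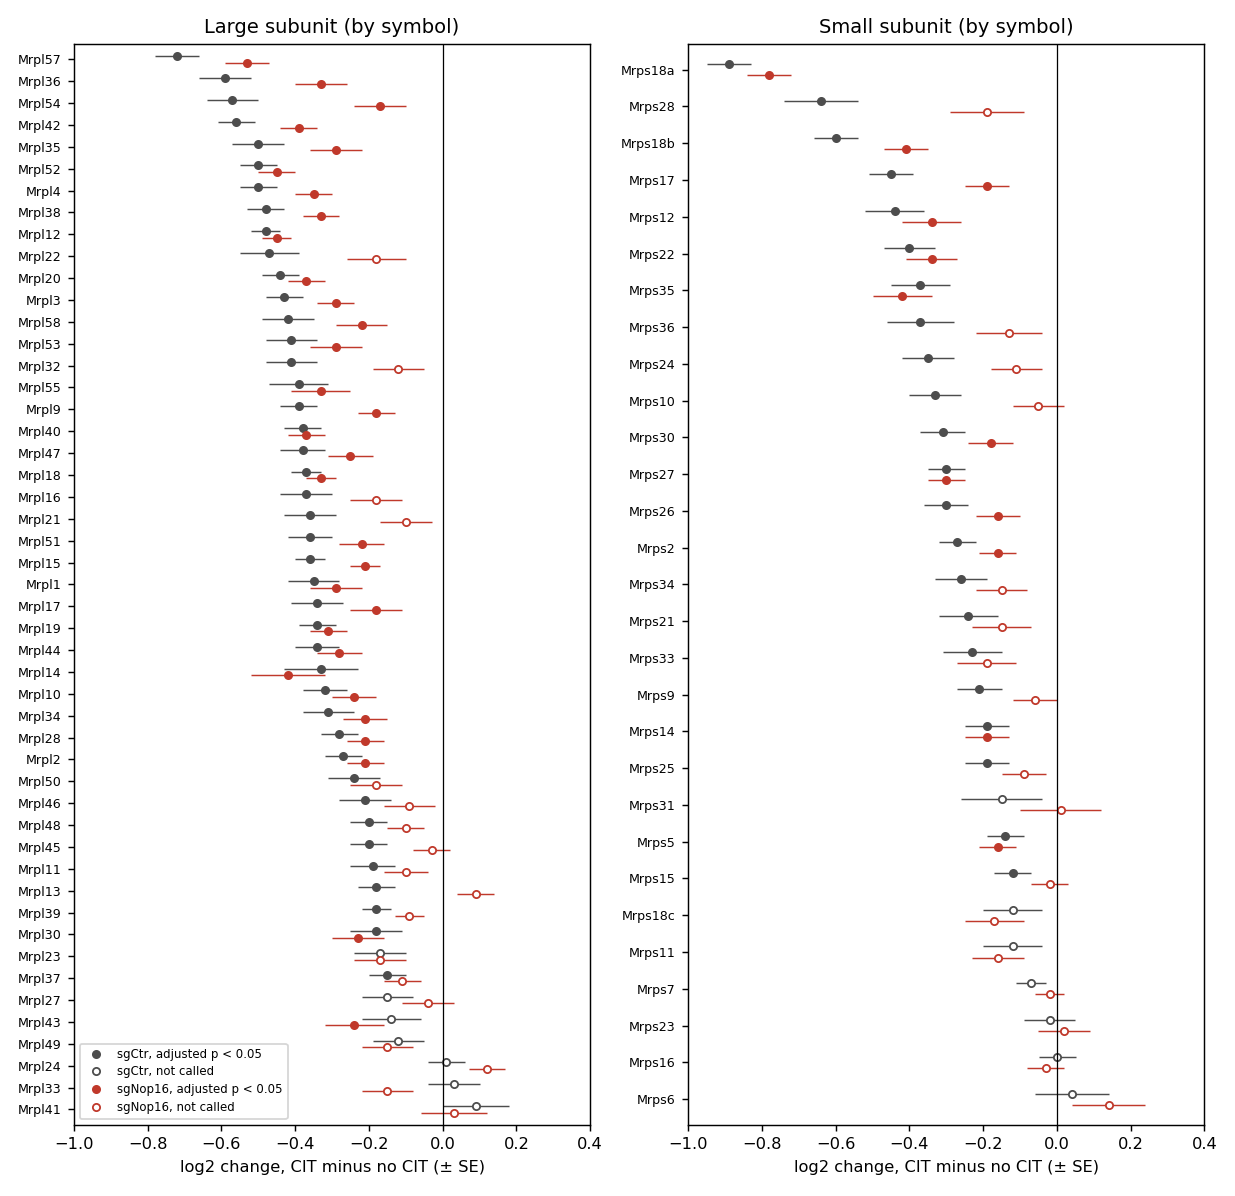
Log2 change with CIT (CIT minus no CIT, horizontal axis, bars ± SE of the fit) of each of the 78 genes, with the large subunit on the left and the small on the right, in grey for the control guide and red for the Nop16 guide; filled points passed an adjusted p of 0.05. Nearly all points lie left of 0, from -0.89 for Mrps18a, and the red points are mostly nearer to 0 than the grey.

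The deepest fall was that of Mrps18a, a mitochondria-specific protein of the large subunit despite its symbol. Its control-guide libraries held 59.5, 57.4 and 63.6 CPM without CIT and 32.2, 31.5 and 33.7 CPM with it. In the Nop16-guide libraries the values were 64.0, 59.0 and 59.6 CPM without and 34.5, 35.6 and 36.1 CPM with CIT. The groups with and without CIT did not overlap for either guide. The log2 change was -0.89 ± 0.06 (SE, n = 3 and 3, adjusted p = 9.55e-12, edgeR) with the control guide, a fall of 46.0%, and -0.78 ± 0.06 (adjusted p = 1.04e-10, edgeR) with the Nop16 guide.

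Its relative Mrps18b, of the small subunit, fell as well. It went from 60.2, 57.7 and 54.9 CPM to 39.1, 37.7 and 36.9 CPM with the control guide. With the Nop16 guide it went from 52.3, 63.1 and 58.8 CPM to 43.8, 43.9 and 43.8 CPM. Both responses were called, at -0.60 ± 0.06 and -0.41 ± 0.06 on the log2 scale (adjusted p = 2.77e-08 and 1.11e-05, edgeR). Mrps18c, the member of the trio that holds the place of the bacterial protein in the small subunit, stayed uncalled. It was at 38.4, 40.3 and 35.0 CPM without and 36.2, 35.2 and 33.3 CPM with CIT under the control guide, ranges that overlap. Its log2 changes were -0.12 ± 0.08 (adjusted p = 0.236, edgeR) and, with the Nop16 guide, -0.17 ± 0.08 (adjusted p = 0.0896), the latter called when replicate 1 of sgNop16_no or of sgNop16_CIT was left out (adjusted p down to 0.0139). The 3 genes carried the same ETS letters, and the difference between their responses was not tested. Mrps18b shares exon sequence with a gene model on the opposite strand and Mrps18c with one on the same strand.

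**Figure D2:**
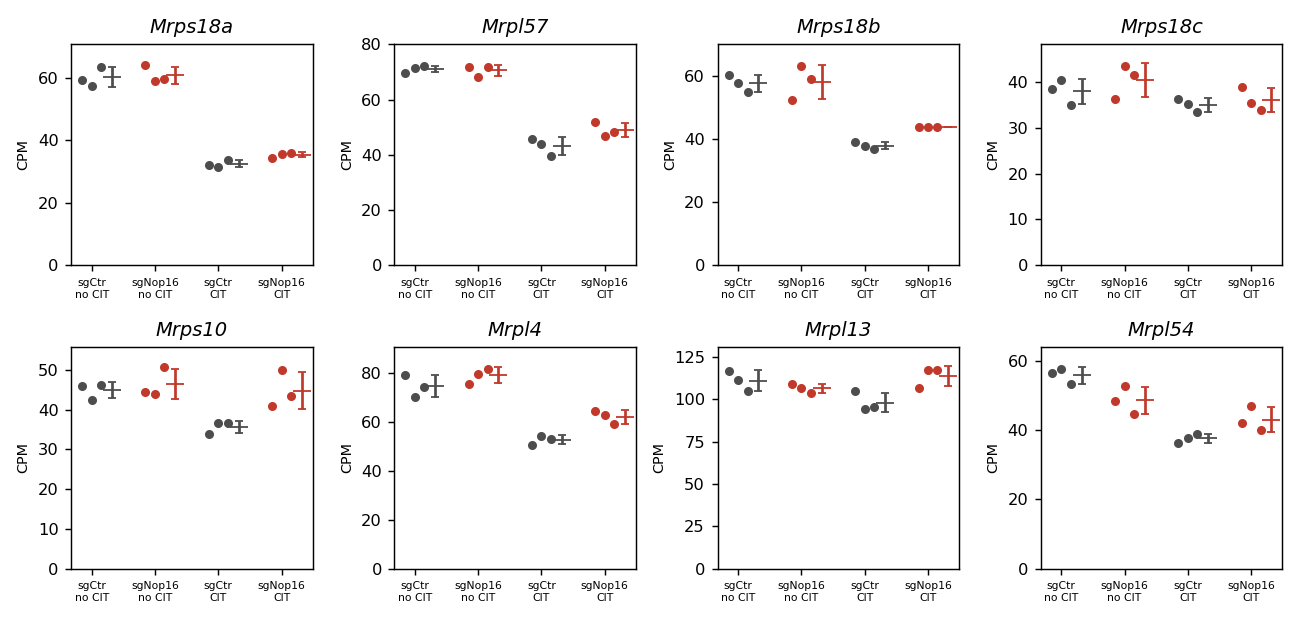
Level in CPM (vertical axis from 0) of 8 members in each library, with 3 points per group and the group mean ± SD beside them, in grey for the control guide and red for the Nop16 guide. Mrps18a and Mrpl57 drop with CIT under both guides, Mrps18c changes little, and Mrps10 falls under the control guide, from 44.8 to 35.6 CPM, while its Nop16-guide means are 46.4 and 44.7 CPM.

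Mrpl57, a mitochondria-specific protein of the large subunit, was at 69.7, 71.6 and 72.1 CPM without and 45.9, 44.1 and 39.5 CPM with CIT under the control guide, a log2 change of -0.72 ± 0.06 (adjusted p = 3.58e-10, edgeR). Under the Nop16 guide it went from 71.8, 68.3 and 71.7 CPM to 51.9, 46.9 and 48.3 CPM, by -0.53 ± 0.06 (adjusted p = 7.35e-08, edgeR). No CIT library reached an unstimulated one. Mrps28, a small subunit protein, fell with the control guide from 27.6, 32.1 and 33.4 CPM to 19.0, 20.9 and 19.7 CPM, by -0.64 ± 0.10 on the log2 scale (adjusted p = 6.77e-06, edgeR). With the Nop16 guide its values were 25.1, 31.9 and 27.2 CPM without and 25.2, 26.6 and 22.2 CPM with CIT, overlapping ranges whose difference of -0.19 ± 0.10 was not called (adjusted p = 0.139, edgeR). The difference between those responses was 0.46 ± 0.13 and was not called either (adjusted p = 0.0724, edgeR).

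Mrpl36, a very small protein of the large subunit, was called in both responses, at -0.59 ± 0.07 with the control and -0.33 ± 0.07 with the Nop16 guide (adjusted p = 3.11e-07 and 0.000586, edgeR). Mrpl12, the stalk protein and the highest of the genes per kilobase, was called lower with both guides. It went from 179.7, 175.5 and 182.2 CPM to 132.7, 123.0 and 128.7 CPM with the control guide, and from 173.1, 185.3 and 169.3 CPM to 128.4, 129.8 and 128.0 CPM with the Nop16 guide. Its log2 changes were -0.48 ± 0.04 and -0.45 ± 0.04 (adjusted p = 3.11e-10 and 1.28e-09, edgeR), and their difference was 0.03 ± 0.05 (adjusted p = 0.873).

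The remaining members fixed by role followed the same direction. Mrpl58, a peptidyl-tRNA hydrolase built into the large subunit that frees stalled ribosomes, changed by -0.42 ± 0.07 with the control guide (adjusted p = 7.39e-05, edgeR) and by -0.22 ± 0.07 with the Nop16 guide (adjusted p = 0.0248). The latter call was lost without sgNop16_no replicate 2 or 3 or sgNop16_CIT replicate 1 or 2, with an adjusted p up to 0.142. Mrps30, of the large subunit in spite of its name, changed by -0.31 ± 0.06 and -0.18 ± 0.06 (adjusted p = 6.26e-05 and 0.0147, edgeR), the second not called without replicate 1 of sgNop16_no or of sgNop16_CIT (adjusted p up to 0.0861). Mrps36, the dehydrogenase subunit, was lower with the control guide (-0.37 ± 0.09, adjusted p = 0.00192, edgeR) and uncalled with the Nop16 guide (-0.13 ± 0.09, adjusted p = 0.293).

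In the 14 genes not called with the control guide, log2 changes lay between -0.17 for Mrpl23 and 0.09 for Mrpl41. Among the 3 lowest per kilobase, Mrps31 (-0.15 ± 0.11, adjusted p = 0.324, edgeR) and Mrpl33 (0.03 ± 0.07, adjusted p = 0.791) were among them, while Mrps35 was lower (-0.37 ± 0.08, adjusted p = 0.000645). The highest per kilobase all fell: besides Mrpl12, Mrpl18 changed by -0.37 ± 0.04 and Mrpl34 by -0.31 ± 0.07 (adjusted p = 9.72e-08 and 0.000426, edgeR).

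With the Nop16 guide the picture was the same in direction and shallower. CIT lowered 43 of the 78 genes (background: 18.5% called lower) and raised 0 (19.3%). At an unadjusted p under 0.05, 1 was higher: Mrpl24, at 0.12 on the log2 scale with an adjusted p of 0.0533 (edgeR). Of the 16794 tested genes, 3783 were higher at that unadjusted p. DESeq2 called 1 gene higher. Of the 43, 31 were large and 12 small subunit genes, and 24 changed at least 1.2-fold. The median log2 change was -0.21 for the large and -0.16 for the small subunit (0.01 for all tested genes). In 52 genes all CIT libraries lay under all unstimulated ones (background 22.7%), and in 1 all lay above (24.3%). After Mrps18a and Mrpl57, the deepest falls were those of Mrpl12, Mrpl52 (-0.45 ± 0.05, adjusted p = 1.32e-07, edgeR), Mrps35 (-0.42 ± 0.08, adjusted p = 0.000213) and Mrpl14 (-0.42 ± 0.10, adjusted p = 0.00156), a protein of the face where the subunits meet. The 2 responses share no library. Of the genes that fell, 42 fell with both guides, which is 42 of 64 with the control and 42 of 43 with the Nop16 guide. The remaining one was Mrpl43, named after its values were seen, and 13 genes fell with neither. No share over all tested genes is at hand for this overlap, so it cannot be read as particular to these genes.

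The counts were alike in the evolutionary classes. With the control guide, 37 of 46 genes with a bacterial counterpart and 26 of 31 mitochondria-specific genes fell, with median log2 changes of -0.33 and -0.30. The split by subunit was wider among conserved proteins: there the median was -0.35 for 30 large and -0.20 for 16 small subunit genes, and 26 and 11 of them fell. Among mitochondria-specific proteins it was -0.34 for 19 large and -0.30 for 12 small subunit genes. Subunits here go by symbol, so those 12 include Mrps18a (-0.89) and Mrps30 (-0.31), which are of the large subunit by structure. The genes were also divided by promoter letters, without a test. Genes with ETS letters had a median control-guide change of -0.35 and those without -0.27. The corresponding pairs were -0.33 and -0.30 for NRF1, -0.42 and -0.30 for YY1 (8 genes against 61), and -0.27 and -0.31 for the E-box (5 against 64).

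Summed over the genes of a subunit, the large subunit transcripts reached 3092.2, 2998.8 and 3067.6 CPM in sgCtr_no, and 3010.5, 3090.7 and 3056.3 CPM in sgNop16_no. With CIT the sums were 2425.7, 2418.4 and 2445.5 CPM for the control guide and 2587.3, 2619.1 and 2632.9 CPM for the Nop16 guide. Unstimulated libraries thus overlapped between guides, and each stimulated Nop16-guide library lay above each stimulated control library. Small subunit sums behaved alike, at 1514.2 to 1557.6 CPM and 1531.2 to 1544.3 CPM without CIT, then 1284.1 to 1301.1 CPM and 1361.2 to 1388.1 CPM with it. In percent, CIT lowered the large subunit sum by 20.4% with the control and 14.4% with the Nop16 guide, and the small subunit sum by 16.0% and 10.5%. These sums are dominated by the more abundant genes and carry no test.

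**Figure D3:**
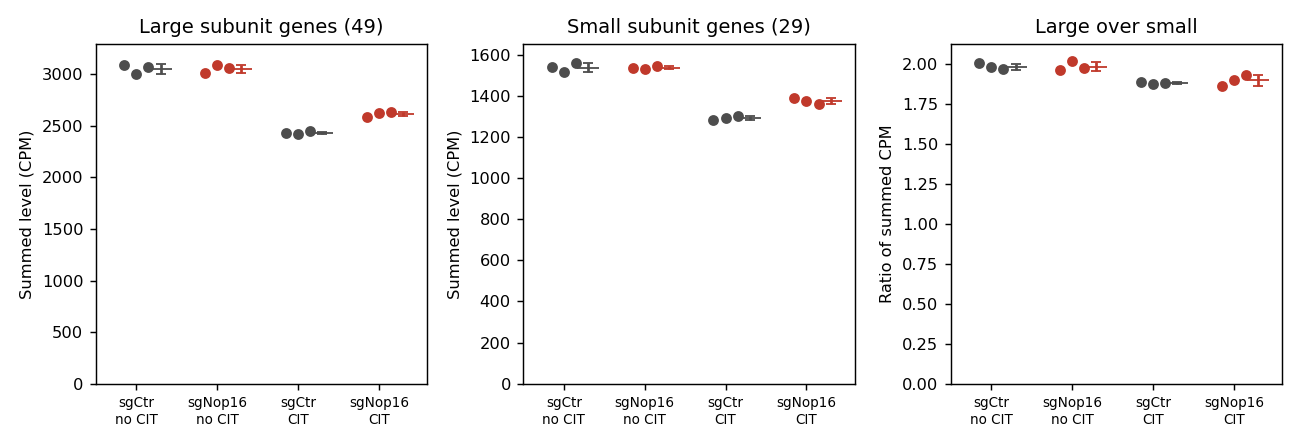
Summed level in CPM of the 49 large (left) and 29 small (middle) subunit genes, and the ratio of the sums (right), all axes from 0, with 1 point per library and the mean ± SD of the 3 libraries beside them. Both sums are lower with CIT, less so with the Nop16 guide (red) than with the control guide (grey), and the ratio goes from about 1.985 to 1.881 with the control guide.

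The large subunit lost slightly more than the small. The ratio of the sums was 2.006, 1.98 and 1.969 in sgCtr_no, 1.961, 2.018 and 1.979 in sgNop16_no, 1.889, 1.875 and 1.88 in sgCtr_CIT and 1.864, 1.903 and 1.934 in sgNop16_CIT. Every stimulated library was under every unstimulated one, and the guides overlapped in each state. Both sums count genes by symbol, so Mrps18a and Mrps30 stand with the small subunit here.

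The guides were then set against each other in each state. Without CIT the genes hardly differed. 1 of 78 was called lower (background 1.92%) and 0 higher (2.14%), while DESeq2 called 2 lower and 0 higher. At an unadjusted p under 0.05 there were 4 either way (edgeR), beside 1250 higher and 1221 lower of the 16794 tested genes. The median log2 difference was -0.01 for the large and 0.01 for the small subunit. All genes but the called one lay between -0.20 for Mrpl54 and 0.17 for Mrps6. All 3 Nop16-guide libraries were above all 3 control libraries in 7 genes (background 9.44%) and under them in 4 (9.4%). Over all tested genes 360 were called higher and 322 lower, or 446 and 233 with library totals in place of TMM.

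The called gene was Mrps34, a mitochondria-specific small subunit protein. It was at 45.3, 43.6 and 49.1 CPM with the control and 34.5, 37.2 and 42.4 CPM with the Nop16 guide, which do not overlap. The log2 difference was -0.27 ± 0.07 (adjusted p = 0.0334, edgeR). It was not called without sgCtr_no replicate 1 or 3 or sgNop16_no replicate 1 or 2, with an adjusted p up to 0.209, nor in a fit of these groups alone or without edgeR's robust option (up to 0.0601). Its exons overlap Nme3 on the same strand and Mapk8ip3 on the opposite one, so the source of its reads is uncertain.

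With CIT, the Nop16-guide libraries held more of these transcripts. 14 of 78 genes were called higher (background 4.05%), 11 of the large and 3 of the small subunit, and 0 lower (3.07%). DESeq2 called 20 higher and 0 lower. At an unadjusted p under 0.05, 1 was lower (edgeR), beside 1359 of the 16794 tested genes. The log2 difference was above 0 in 72 of 78 genes (background 51.8%), with a median of 0.09 for either subunit against 0.01 for all tested genes. In 31 genes all Nop16-guide libraries lay above all control libraries (background 13.2%), and in 2 under them (10.9%). Of the 10571 genes kept by a filter of 5 CPM in 3 libraries, 764 were called higher and 657 lower. The differences of the 78 genes were small, and 2 of the 14 called reached 1.2-fold. The count depends on the number of libraries: it was 6 to 8 when any 1 of the 6 libraries of these groups was left out, and 8 in a fit of these groups alone.

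Mrps10, a small subunit protein with a bacterial counterpart, showed the largest called difference. It was at 33.8, 36.5 and 36.5 CPM with the control guide and 41.0, 49.9 and 43.3 CPM with the Nop16 guide, without overlap. The log2 difference was 0.33 ± 0.07 (adjusted p = 0.0059, edgeR), and 0.24 (adjusted p = 0.0644) without sgNop16_CIT replicate 2, its highest library. Mrpl4, which lines the exit tunnel, was at 50.6, 54.1 and 53.1 CPM with the control and 64.4, 62.7 and 59.0 CPM with the Nop16 guide. Its difference of 0.24 ± 0.05 (adjusted p = 0.00754, edgeR) held whichever library was left out, as did that of Mrpl15, at 0.20 ± 0.04 (adjusted p = 0.00429).

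Mrpl47, a large subunit protein near the end of the tunnel, was at 34.3, 32.4 and 32.4 CPM against 38.3, 38.3 and 42.5 CPM, by 0.27 ± 0.06 (adjusted p = 0.0122, edgeR). It was not called without sgCtr_CIT replicate 2 or 3 or sgNop16_CIT replicate 3 (adjusted p up to 0.087). Mrpl36 was at 29.4, 30.9 and 28.3 CPM against 35.5, 34.4 and 36.3 CPM, by 0.26 ± 0.07 (adjusted p = 0.0268, edgeR), a call kept only without sgCtr_CIT replicate 2 when one library was left out (adjusted p up to 0.118). Mrpl21, a large subunit protein of bacterial origin, differed by 0.22 ± 0.07 (adjusted p = 0.0426, edgeR), and its call was lost without sgCtr_CIT replicate 1 or 2 or sgNop16_CIT replicate 1 or 3 (adjusted p up to 0.198). It was also lost with library totals, in a fit of these groups alone and without edgeR's robust option (adjusted p up to 0.067). Control and Nop16-guide libraries did not overlap in any of these genes. Exons of Mrpl47, Mrpl36 and Mrpl21 share sequence with genes on the opposite strand, while those of Mrps10, Mrpl4 and Mrpl15 share none. The remaining 9 called genes, Mrpl15 among them, differed by 0.16 to 0.21.

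**Figure D4:**
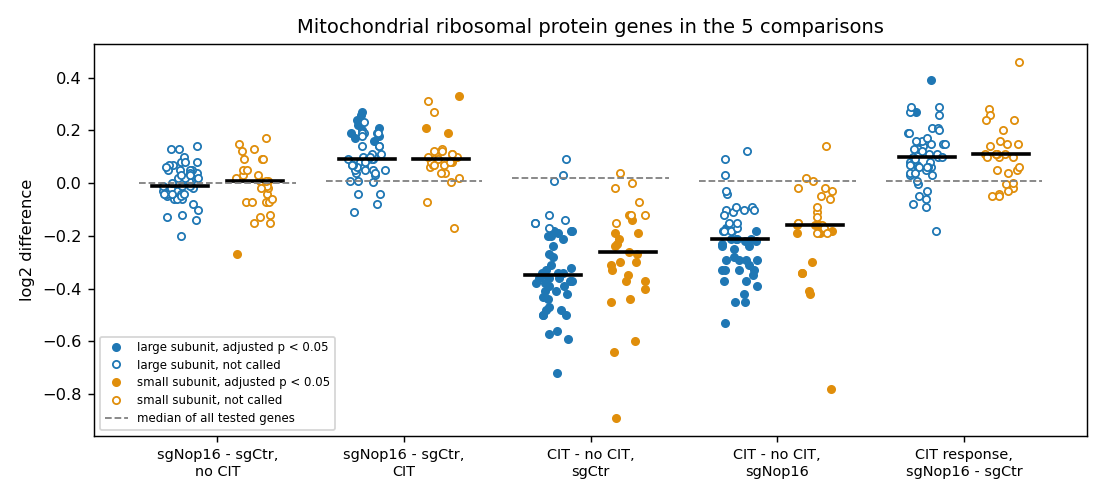
Log2 differences (vertical axis) of the 78 genes in the 5 comparisons, large subunit in blue and small in orange, filled where the adjusted p was under 0.05, with black bars at subunit medians and a dashed line at the median of all tested genes. The genes centre on 0 between guides without CIT, lie slightly above it with CIT (median 0.09), and lie below it in both CIT responses.

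Whether the response to CIT differed between guides was asked of each gene by the interaction, the Nop16-guide response minus the control response. 2 of 78 genes were called higher (background 1.23%), both of the large subunit, and 0 lower (1.6%), while DESeq2 called 4 higher and 0 lower. At an unadjusted p under 0.05, 18 were higher and 0 lower (edgeR), beside 1212 higher and 1027 lower of the 16794 tested genes. The median was 0.10 for the large and 0.11 for the small subunit, with 0.01 for all tested genes, and 64 of 78 values were above 0 (background 51.3%). For most single genes, then, a shallower fall with the Nop16 guide was not shown. Over all tested genes 207 were called higher and 268 lower, or 138 and 327 with library totals.

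Mrpl54, a mitochondria-specific large subunit protein, had the larger called value. With the control guide it went from 56.4, 57.8 and 53.2 CPM to 36.4, 37.6 and 39.0 CPM, a change of -0.57 ± 0.07 (adjusted p = 3e-07, edgeR). With the Nop16 guide it went from 48.3, 52.8 and 44.8 CPM to 42.2, 47.0 and 39.9 CPM, a change of -0.17 ± 0.07 (adjusted p = 0.0461, edgeR), and these ranges overlap. The interaction was 0.39 ± 0.10 (adjusted p = 0.0259, edgeR). Part of it lies in the unstimulated cells, where the Nop16-guide libraries were lower, without a call (-0.20 ± 0.07, adjusted p = 0.115).

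Mrpl13, a large subunit protein of bacterial origin, was at 116.6, 111.6 and 104.7 CPM without and 104.7, 94.0 and 95.4 CPM with CIT under the control guide, a change of -0.18 ± 0.05 (adjusted p = 0.00472, edgeR). Under the Nop16 guide it was at 108.9, 106.5 and 103.9 CPM without and 106.6, 117.3 and 117.0 CPM with CIT, a difference of 0.09 ± 0.05 that was not called (adjusted p = 0.147). The interaction was 0.27 ± 0.07 (adjusted p = 0.0332, edgeR), and its exons overlap Mtbp on the opposite strand. Neither interaction was called in every fit that left out 1 of the 12 libraries. For Mrpl54, 7 of these fits lost the call (adjusted p up to 0.0926): those without sgCtr_no replicate 1 or 2, sgNop16_no replicate 1 or 3, sgCtr_CIT replicate 1 or 2, or sgNop16_CIT replicate 2. For Mrpl13, 9 lost it (adjusted p up to 0.132), and the fits that kept it were those without sgCtr_no replicate 3, sgCtr_CIT replicate 1 or sgNop16_CIT replicate 1.

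Genes that work with the mitochondrial ribosome were read from lists drawn up by role. All 5 ribosomal proteins without an Mrp name fell with CIT under either guide. With the control guide the changes were -0.36 ± 0.04 for Dap3 (adjusted p = 9.36e-08, edgeR), a GTP-binding small subunit protein, and -0.36 ± 0.04 for Ptcd3 (adjusted p = 4.53e-07), an RNA-binding protein of the small subunit. Chchd1, also of the small subunit, changed by -0.31 ± 0.07 (adjusted p = 0.000512), and Gadd45gip1, at the exit of the large subunit, by -0.45 ± 0.05 (adjusted p = 2.64e-07). Aurkaip1 changed by -0.19 ± 0.06 (adjusted p = 0.00841, edgeR), a call lost without sgCtr_CIT replicate 1 (adjusted p = 0.0599). With the Nop16 guide it changed by -0.17 ± 0.06 (adjusted p = 0.025, edgeR), not called without sgNop16_no replicate 1 or sgNop16_CIT replicate 2 or 3 (adjusted p up to 0.12). Between guides after CIT, Gadd45gip1 alone of the 5 was called, higher with the Nop16 guide by 0.22 ± 0.05 (adjusted p = 0.0118, edgeR). That call was lost without sgCtr_CIT replicate 1 or sgNop16_CIT replicate 3 (adjusted p up to 0.0868).

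Factors that assemble or serve the ribosome moved less uniformly. Of 26 tested assembly factors, 10 fell and 1 rose with CIT under the control guide, with a median of -0.21. The shares over all tested genes, against which these counts and those of the next lists are to be read, were 21.1% lower and 20.6% higher. Rbfa, which matures the small subunit, changed by -0.60 ± 0.08 (adjusted p = 5.49e-07, edgeR), and Noa1, a GTPase of small subunit assembly, by -0.55 ± 0.05 (adjusted p = 1.42e-09). Mpv17l2 was the gene that rose, by 0.28 ± 0.08 (adjusted p = 0.00814), though not without sgCtr_no replicate 1 (adjusted p = 0.0694). Of 15 translation factors 8 fell and 1 rose, with the elongation factors Tsfm (-0.58 ± 0.07, adjusted p = 3.23e-07, edgeR) and Gfm1 (-0.47 ± 0.06, adjusted p = 2.14e-07) in front. Of 19 tRNA synthetases that serve mitochondria, 9 fell and 2, Cars2 and Aars2, rose, by 0.42 ± 0.08 and 0.31 ± 0.05 (adjusted p = 0.000236 and 2.94e-05, edgeR).

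**Figure D5:**
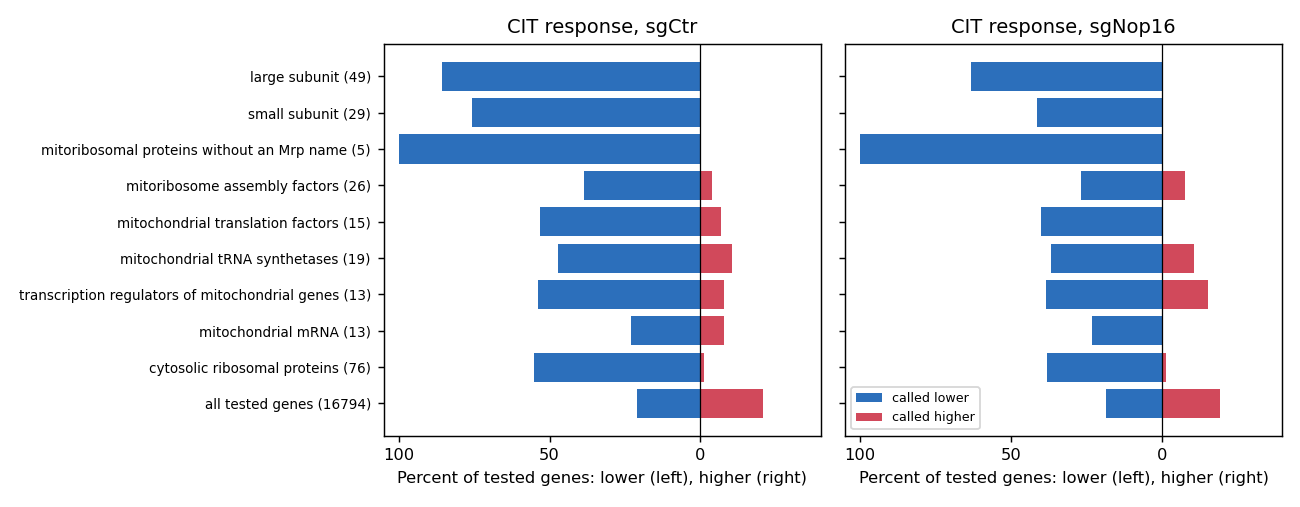
Percent of the tested genes of each list that were called lower (blue, to the left) or higher (red, to the right) with CIT, for the control guide (left panel) and the Nop16 guide (right panel), with the number tested in brackets. Of the large subunit genes 42 of 49 were lower with the control guide, against 42 of 76 cytosolic ribosomal protein genes, and all tested genes split nearly evenly.

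Regulators and the organelle's own RNAs differed among themselves. Of 13 regulators of mitochondrial genes, 7 fell and 1 rose with the control guide. The gene that rose was Gabpa, of the ETS factor GABP, by 0.10 ± 0.04 (adjusted p = 0.0341, edgeR). Its call was lost without sgCtr_no replicate 1 or 3 or any sgCtr_CIT replicate (adjusted p up to 0.144). It was also lost with no low-count filter (adjusted p = 0.0645). With the Nop16 guide Gabpa rose by 0.11 ± 0.04 (adjusted p = 0.02, edgeR). Its part in the fall of the ribosomal protein genes was not tested. Myc, a transcription factor that drives cell growth, was at 455.2 ± 6.49 CPM in sgCtr_no and 462.9 ± 4.24 in sgNop16_no, then at 197.5 ± 7.43 in sgCtr_CIT and 244.9 ± 5.95 in sgNop16_CIT (SD, n = 3). Its log2 changes with CIT were -1.21 ± 0.03 and -0.92 ± 0.03 (adjusted p = 2.22e-19 and 3.23e-17, edgeR), and after CIT it was higher with the Nop16 guide by 0.31 ± 0.03 (adjusted p = 3.4e-07). Its level thus moved in the same directions as the summed subunit levels, and its part in their change was not tested. Pprc1, a coactivator of mitochondrial biogenesis, changed by -0.40 ± 0.04 with CIT (adjusted p = 6.24e-09, edgeR), and was higher with the Nop16 guide after CIT by 0.16 ± 0.04 (adjusted p = 0.00942), not called without sgCtr_CIT replicate 2 or sgNop16_CIT replicate 3 (adjusted p up to 0.069).

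The 2 ribosomal RNAs of the organelle fell with CIT under the control guide, mt-Rnr1 by 0.57 ± 0.04 and mt-Rnr2 by 0.18 ± 0.04 on the log2 scale (adjusted p = 5.66e-12 and 0.000262, edgeR). Their reads depend on how ribosomal RNA was removed from total RNA, a step left unnamed by the labels. After CIT, mt-Rnr2 was lower with the Nop16 guide (-0.25 ± 0.04, adjusted p = 0.000123, edgeR), opposite in sign to the protein genes. Without CIT both were also lower with that guide. There mt-Rnr1 was called (-0.15 ± 0.04, adjusted p = 0.0161, edgeR) and mt-Rnr2, at -0.11, was not. The mt-Rnr1 call was lost without sgCtr_no replicate 1 or 3 or sgNop16_no replicate 1 or 2 (adjusted p up to 0.0953). The 13 mitochondrially encoded messenger RNAs, which this ribosome translates, had a median change of -0.02 with the control guide, and their summed level changed by -2.36%. 3 of them were called lower and 1 higher, where 21.1% and 20.6% of all tested genes were, so the share that fell was near the background. Cytosolic ribosomal protein genes fell in 42 of 76 cases with 1 higher, but by less, with a median of -0.10 and a change of -6.24% in their sum against -18.9% for the 78 genes together. Their guide difference after CIT was -0.0495% in the sum, where that of the 78 genes was 7.17%. The sum of the mitochondrially encoded messenger RNAs differed between guides by -3.84% after CIT and by -6.91% without it. Its libraries overlapped between guides after CIT and did not without it.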

How the data were processed

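RNA of CH12F3-2A cells was sequenced in 12 libraries, 3 for each of 4 groups. The library kit was directional and took total RNA, per the labels' protocols. The submitters' processing notes name HISAT2 2.2.1, StringTie 2.2.1 and GRCm39. Annotation release, read length and strand setting were not given in the sources used here. For each Ensembl gene the authors deposited estimated counts, unscaled whole numbers. Among low values 4 was in excess, so a fragment may be worth about 4 counts, and values divided by 4 were refitted.

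Symbols, exon lengths and overlaps came from an annotation of an earlier build, GRCm38, so no coordinates are given from it. Genes were filtered with filterByExpr and compared in edgeR 4.0.16 under R 4.3.3, using its robust quasi-likelihood F test, TMM factors (0.985 to 1.01), 1 mean per group over all 12 libraries, and Benjamini-Hochberg adjustment over the 16794 tested genes. The threshold was an adjusted p of 0.05, and the SE is the model's. Contrasts, 5 in all, were the guides with and without CIT, CIT within either guide, and the interaction. The script was tested on simulated data. Taken in units of 4 counts, replicates differed by more than sampling noise (mean chi-square 2.24 to 3.4 per pair). CPM used TMM-scaled library sizes.

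The members, lists and tests were chosen with earlier results of these data known. Named members are those called in a guide contrast or the interaction (of more than 10, the 5 largest), the 5 deepest called falls per CIT response, the highest and lowest per kilobase, and 7 fixed by role (Mrps18a, Mrps18b, Mrps18c, Mrps30, Mrps36, Mrpl12, Mrpl58). From each list up to 2 called genes per direction could be named, and not all are; some results are not reported here. Beyond the rule, Mrpl15, Mrpl24, Mrpl23, Mrpl41, Mrpl43 and Mrps6 were named with their values in view. Other settings tried were DESeq2 1.42.0, RLE factors, library totals, other filters, a replicate block, fits of the compared groups alone, no robust option (added after seeing the data), a 1.2-fold minimum, membership by structure, no members with overlapping exons, and leaving out each library.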

Additional observations from a re-analysis of the deposited data

Results flagged for a closer look

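In the 5 genes given here, the response to CIT differed between the guides by edgeR's interaction test. Each value was positive, the fall being shallower or absent with the Nop16 guide. Among the ribosomal protein genes these were Mrpl54 (0.39 on the log2 scale) and Mrpl13 (0.27). Rbfa, the small subunit maturation factor, had an interaction of 0.43 ± 0.11 (SE, adjusted p = 0.0264, edgeR), going from 40.1 ± 3.50 to 26.4 ± 1.84 CPM with the control guide and from 36.2 ± 1.92 to 32.2 ± 1.63 CPM with the Nop16 guide (SD, n = 3). Gars1, listed as Gars, which makes the glycyl-tRNA synthetase of both cytosol and mitochondria, had 0.19 ± 0.04 (adjusted p = 0.0178, edgeR), with means of 260.1 and 179.4 CPM against 250.8 and 197.0 CPM. Myc had 0.29 ± 0.04 (adjusted p = 0.000286, edgeR). The 5 are not all the genes called in this test. Over all tested genes 207 (1.23%) were called higher and 268 (1.6%) lower.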

How the results depend on the processing

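No ribosomal protein gene that was called changed direction under any alternative. These genes had at least 521 counts in every library. Leaving out members with overlapping exons kept 45 of the 78 genes, so the counts given for that setting are out of 45. Between guides after CIT, the count of 14 higher became 8 with only the groups compared, 2 with a 1.2-fold minimum, 8 with overlapping members left out and 6 to 8 in the leave-one-out fits. 2 of the 14 (Mrpl4 and Mrpl15) were called in every leave-one-out fit. The fall with the control guide was called in 40 genes with overlapping members left out, and with the Nop16 guide in 25, or 24 with a 1.2-fold minimum; the leave-one-out ranges were 59 to 62 and 39 to 48, and 52 of 64 and 31 of 43 genes were called in every one. Library totals, the 5 CPM filter, DESeq2 and division by 4 each called 1 gene higher in the Nop16-guide response (leave-one-out, 0 to 1). The guide call without CIT numbered 0 with only the groups compared, without the robust option and with overlapping members left out, 2 with DESeq2, and 0 to 1 leaving out a library. The interaction calls numbered 1 with library totals or overlapping members left out, 4 with DESeq2, 0 without the robust option and 0 to 2 leaving out a library.

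Medians moved little. With library totals and the 5 CPM filter, the control-guide medians were -0.32 and -0.33 (large) and -0.23 and -0.24 (small). With overlapping members left out, the large subunit median was 0.11 between guides after CIT and 0.02 without CIT, and the small subunit median without CIT was -0.01 (0.02 with library totals). The interaction median of the small subunit was 0.08 with library totals or membership by structure. Leaving out a library gave -0.36 to -0.33 (large) and -0.28 to -0.24 (small) for the control-guide response, -0.24 to -0.21 and -0.18 to -0.15 for the Nop16-guide response, 0.08 to 0.11 (small) between guides after CIT, -0.02 to 0.01 (large) and -0.01 to 0.01 (small) between guides without CIT, and 0.07 to 0.12 and 0.07 to 0.11 for the interaction. Uncalled values near 0 changed sign: leaving out a library gave -0.07 to 0.06 for Mrps31 with the Nop16 guide, -0.04 to 0.07 for Mrpl33 with the control guide and -0.03 to 0.04 for Gadd45gip1 between guides without CIT, the last also at -0.0008 with no low-count filter. Same-numbered replicates did not deviate together (correlations of -0.0448 to 0.0234), so the numbers were not taken as pairs; with the replicate block the counts were 12 higher between guides after CIT, and 64 and 43 lower in the CIT responses. The causes of these shifts were not tested, other than that fewer members, groups or libraries entered some fits.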
